A study of Mus musculus with 16 samples.

Results

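The B lymphocyte genes described here are 33 genes that mark the lineage from its first committed progenitors to antibody-secreting plasma cells, chosen by symbol from the values deposited for each mouse. Of these, 31 had a feature under their symbol. Cd22 and Cd37 did not and were not analysed here, and since 3887 features all carry the symbol Rnf135, they may be among these. Ebf1 had 2 features, so the genes are represented by 32 of the 36829 features, and all 32 were among the 16973 features abundant enough to be tested, with a mean of at least 0.5 RPKM (reads divided by the length of the gene and the size of the library). RNA had been taken from femoral cortical bone of female C57Bl/6 mice aged 11 weeks, with 1 library per mouse. Control 1 to Control 8 were the 8 mice kept under normal weightbearing, and HLU 1 to HLU 8 were the 8 mice whose hindlimbs had been unloaded by tail suspension for 7 days. The labels name no transgene or drug in either group. The bone ends had been removed and the marrow rinsed out before the remaining shaft was homogenised, so each value is an average over every cell left in the shaft. In such bulk RNA, fewer cells of a type and less RNA per cell cannot be told apart.

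B lymphocytes are made throughout adult life in the bone marrow, next to stromal cells that supply interleukin 7 and the chemokine Cxcl12. Progenitors rearrange their heavy chain genes with the Rag1 and Rag2 recombinase, test the new chain with a surrogate light chain, and then express a complete B cell receptor whose signal passes through Cd79a and Cd79b. Mature B cells leave for the spleen and lymph nodes, and some of the plasma cells they give rise to return to the marrow, where they can persist for long periods. The question the comparison addresses is whether the RNA of these stages differed between cortical bone that had carried load and cortical bone that had not.

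The libraries held between 6412015 and 18377603 reads on listed features, with medians of 14225287 (Control) and 14034661 (HLU), and the smallest were Control 2 and HLU 5. These are reads, not independent molecules, so limits drawn from them cover counting error only. The libraries also differed in how abundance followed the GC content of the transcript. This slope was most negative in HLU 4, Control 4 and Control 1, at -0.60, -0.48 and -0.47 on the log2 scale for each 10% of GC, and most positive in Control 5 and Control 7, at 0.40 and 0.39, over 14774 features. Mitochondrial genes took a median of 9.30% of reads in Control and 11.8% in HLU, and at most 19.1%, in HLU 4. Markers of the labelled tissue were present, since all 5 osteocyte markers and all 8 osteoblast markers were detected. The latter had summed levels of 819 to 1902 RPKM (Control) and 967 to 2411 RPKM (HLU). Blood cell markers were abundant too, with 7 granulocyte markers at summed levels of 17490 to 37730 RPKM (Control) and 12320 to 44370 RPKM (HLU). The rinsed bone therefore still held RNA of blood cells.

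Transcripts from every stage of the B lineage were found in the flushed bone of all 16 mice. Mean levels over the 16 mice ran from 0.788 RPKM for Tnfrsf17, a receptor of plasma cells, to 1107 RPKM for Cd24a, a surface protein of immature B cells that is also abundant on erythroid and myeloid cells. In HLU mice, 3 of the 32 features were lower past the unadjusted threshold (limma, p under 0.05 together with a 1.2-fold change or more), which is 9.375% of them, beside 4.76% of all 16973 features. These were Vpreb3, Spib and Cd72. Without Control 5 the count was 11 (Vpreb3, Spib, Cd72, Il7r, Pax5, Blk, Syk, Pou2af1, Cd79b, Rag1 and Tnfrsf13c), without HLU 2 it was 6 and without HLU 3 it was 5, and the share of all features called lower rose to 6.6%, 8.16% and 6.89% in these fits. The count fell to 2 when Control 4, Control 7, Control 8, HLU 4, HLU 6 or HLU 7 was left out, beside 2.77% to 4.58% of all features. No B lymphocyte gene was higher at that threshold, beside 1.11% of all features. None passed an adjusted p under 0.1, and neither did any of the 16973 features by limma, of which 1049 had an unadjusted p under 0.05 at any fold. With voom on reads recovered from the RPKM values the count at the adjusted threshold was also 0. The adjusted p of the 32 features lay between 0.744 and 0.976.

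The fold changes of the 32 features were all below 0, from -0.81 for Vpreb3 to -0.02 for the longer Ebf1 feature, but with median-of-ratios rescaling, quantile normalization or removal of the GC trend only 29 were, the exceptions being Igll1, Fcer2a and the longer Ebf1 feature. Of all features 67.9% had a fold change below 0 in RPKM and 52.5% after median-of-ratios rescaling. The median log2 change was -0.38 over the B lymphocyte genes and -0.10 over all features, and after median-of-ratios rescaling these medians were -0.28 and -0.01. By role, the median was -0.39 for 12 progenitor features, -0.36 for 8 features of receptor signalling, -0.42 for 8 features of mature B cells and -0.32 for 4 features of plasma cells. The roles are labels given to the genes. Irf4 and Prdm1, of the plasma cell role, are also expressed by other cells, so that median is not a measure of plasma cells alone. Over all features 808 were called lower and 188 higher in RPKM, and 394 and 381 after rescaling. Rescaling left 3 B lymphocyte genes called lower and took the background to 2.32%, whereas removing the GC trend left 1, Vpreb3, beside 3.18%.

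**Figure D1:**
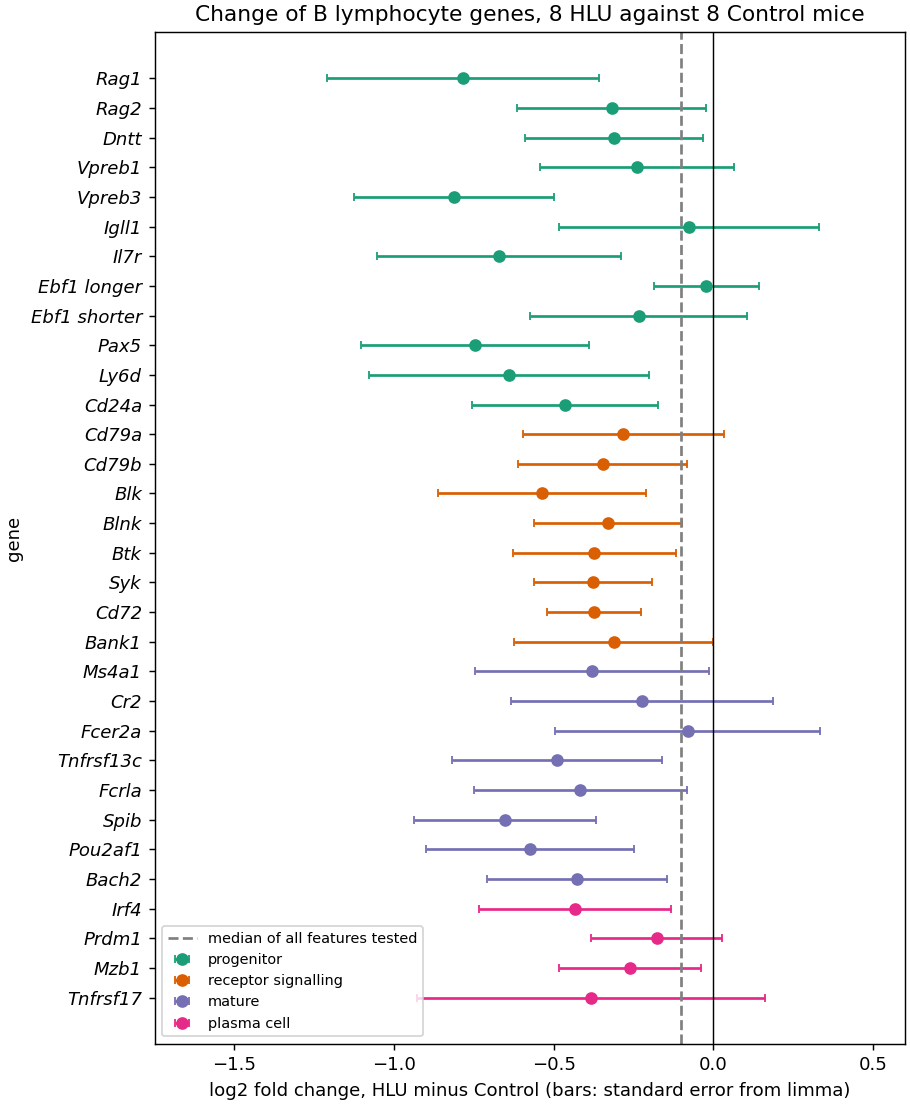
Log2 fold change of each B lymphocyte gene, 8 HLU against 8 Control mice, on the scale log2(RPKM + 0.1), with the standard error from limma as the bar and genes coloured by role. The solid line is at 0 and the dashed line at the median of all features tested, -0.10, and 29 of the 32 points lie at or left of the dashed line.

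The spread between mice of 1 group was wide. Control 4 held the highest value of all 16 mice for 22 of the 32 features and Control 7 for 6, whereas HLU 7 held the lowest value for 16 and HLU 4 for 5. Averaged over the 32 features, Control 4 lay 0.97 above the mean of all mice on the log2 scale and HLU 7 lay at -1.03. In the same average Control 5, at -0.68, lay below 7 of the 8 HLU mice, and HLU 2, at 0.35, lay above 5 of the 8 control mice. The groups overlapped for every B lymphocyte gene. Over all features, 0.0177% had groups that did not overlap with HLU lower and 0.0118% with HLU higher.

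**Figure D2:**
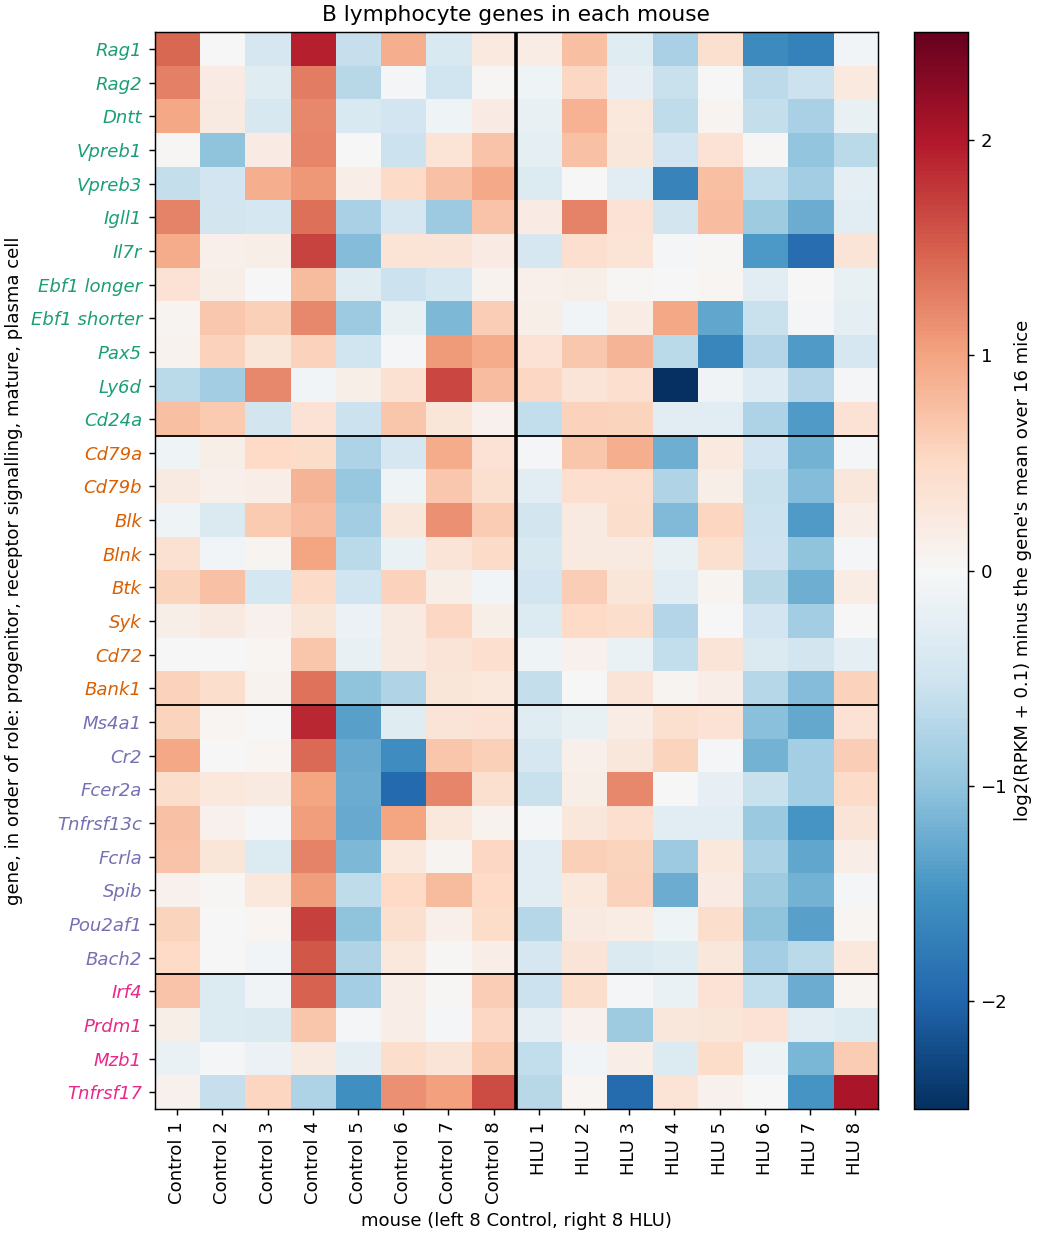
Each row is a B lymphocyte gene and each column a mouse, with the colour giving log2(RPKM + 0.1) minus the gene's mean over the 16 mice, from low (blue) to high (red). The column of Control 4 is red for most genes and that of HLU 7 blue, at averages of 0.97 and -1.03, and Control 5 is blue although it is a control mouse.

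Vpreb3, a small protein of pre-B cells that binds newly made heavy chains, had the largest change among the progenitor genes. In control mice its level was 2.89 RPKM at the lowest, 6.73 at the median and 9.44 at the highest. In HLU mice these values were 1.31, 3.54 and 7.44 RPKM. Of the 8 HLU mice, 7 lay below the control median, and the exception, HLU 5, lay above it. The mean was 6.33 ± 2.49 RPKM in Control and 3.64 ± 1.80 RPKM in HLU (SD, n = 8), a log2 change of -0.81 with a standard error of 0.31 (limma p = 0.0193, adjusted p = 0.744, two-sided exact permutation p = 0.0314). The lowest value, in HLU 4, rested on 29 reads. With erythroid and granulocyte marker scores as covariates the change was -0.42 and no longer past the threshold.

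Rag1 and Rag2 encode the recombinase that cuts and joins antigen receptor gene segments. Rag1 had 1.37, 2.27 and 8.30 RPKM in control mice (lowest, median and highest) and 0.580, 1.81 and 3.60 RPKM in HLU mice. Its 2 highest values were those of Control 4 and Control 1, and its 2 lowest those of HLU 7 and HLU 6. In all, 3 control mice lay above every HLU mouse and 3 HLU mice below every control mouse. The log2 change of Rag1 was -0.78 with a standard error of 0.43 (limma p = 0.0834, exact permutation p = 0.112), so its size was close to that of Vpreb3 while its spread was larger. It passed the unadjusted threshold without Control 5 (-0.92), without HLU 2 (-0.95) or with the marker scores as covariates (-1.17). Rag2 was at 1.28 ± 0.79 RPKM (Control) and 0.909 ± 0.298 RPKM (HLU, SD, n = 8 each), a change of -0.32 (exact permutation p = 0.314).

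In what follows ± is the SD over 8 mice, with Control before HLU. Dntt, the polymerase that adds untemplated bases at the joints, was at 8.79 ± 4.32 RPKM (Control) and 6.91 ± 2.98 RPKM (HLU, exact permutation p = 0.310). The surrogate light chain is made of Vpreb1 and Igll1. Vpreb1 was at 2.25 ± 1.13 and 1.83 ± 0.76 RPKM (exact permutation p = 0.463). Igll1 was at 3.55 ± 2.47 and 3.21 ± 1.90 RPKM (exact permutation p = 0.866), and its median was higher in HLU mice, at 2.81 against 2.09 RPKM. The parts of the surrogate light chain therefore differed between groups by less than the spread between mice.

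Il7r, the receptor for interleukin 7, had 3.12, 8.13 and 21.8 RPKM in Control and 1.71, 6.72 and 9.01 RPKM in HLU mice. The highest value by far was that of Control 4, and HLU 7 and HLU 6 were the lowest. Its log2 change was -0.67 with a standard error of 0.38 (exact permutation p = 0.126). Ebf1 and Pax5 are the transcription factors that specify the lineage and hold cells to it. Pax5 had 0.808, 1.64 and 2.58 RPKM in Control and 0.313, 0.779 and 2.21 RPKM in HLU mice, and 4 HLU mice lay below every control mouse. The change of Pax5 was -0.75 with a standard error of 0.36 (limma p = 0.0519, exact permutation p = 0.0681), and it passed the unadjusted threshold when Control 5, Control 6, HLU 1, HLU 2 or HLU 3 was left out. The longer Ebf1 feature, of 11759 bases, was at 4.37 ± 1.46 and 4.14 ± 0.40 RPKM (SD, n = 8), and the shorter, of 453 bases and as few as 8 reads, was at 6.98 ± 3.54 and 5.67 ± 2.56 RPKM.

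Ly6d, a surface protein that marks lymphoid progenitors committed to B cells, had the widest range of the progenitor genes, 21.4-fold from its lowest to its highest value. It had 4.505, 10.03 and 26.5 RPKM in Control and 1.24, 7.92 and 11.96 RPKM in HLU mice, with HLU 4 alone at the bottom and Control 7 at the top. Its log2 change was -0.64 with a standard error of 0.44 (exact permutation p = 0.209), and with the marker scores as covariates it was 0.23. Cd24a was at 1258 ± 394 RPKM (Control) and 957 ± 432 RPKM (HLU, exact permutation p = 0.154). Of the 12 progenitor features, 1 was called lower, beside 4.76% of all features. Exons of 7 of the 31 genes overlap those of another gene in GENCODE M21, so some of their reads may not be their own. The shared length was 80 bases for Rag1, 208 for Rag2, 108 for Vpreb1, up to 636 for Pax5, 537 for Bach2, 695 for Mzb1 and 1423 for Cd72. In the same order the features were 6608, 5280, 2263, 4080, 21557, 905 and 6425 bases long. Relative to its length Mzb1 shared the most, so its values carry this limit most.

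The promoters of Vpreb3, Cd72 and Spib are shown because these 3 genes passed the unadjusted threshold, and those of Cd79a and Rag1 because the genes served as references for covariation between mice. Each window runs from 250 bases before to 50 bases after the transcription start in RefSeq on GRCm38.p6, is printed along the gene's strand, and has in capitals any match on either strand to the motifs searched. RefSeq windows were found for 25 of the 31 genes, 29 windows in all.
Vpreb3 promoter, chr10:75948050-75948349, plus strand: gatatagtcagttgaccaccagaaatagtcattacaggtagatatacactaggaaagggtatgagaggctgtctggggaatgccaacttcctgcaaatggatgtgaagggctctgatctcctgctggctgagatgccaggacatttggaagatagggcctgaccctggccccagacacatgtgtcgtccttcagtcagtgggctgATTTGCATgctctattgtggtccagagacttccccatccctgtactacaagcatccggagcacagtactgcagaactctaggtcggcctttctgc
Rag1 promoter, chr2:101649483-101649782, minus strand: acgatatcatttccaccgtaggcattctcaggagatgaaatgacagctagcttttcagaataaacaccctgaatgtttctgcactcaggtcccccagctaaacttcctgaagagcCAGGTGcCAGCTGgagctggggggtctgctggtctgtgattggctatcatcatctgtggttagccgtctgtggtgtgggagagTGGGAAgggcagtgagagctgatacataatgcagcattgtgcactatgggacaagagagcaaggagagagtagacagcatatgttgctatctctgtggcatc
Cd79a promoter, chr7:24897247-24897546, plus strand: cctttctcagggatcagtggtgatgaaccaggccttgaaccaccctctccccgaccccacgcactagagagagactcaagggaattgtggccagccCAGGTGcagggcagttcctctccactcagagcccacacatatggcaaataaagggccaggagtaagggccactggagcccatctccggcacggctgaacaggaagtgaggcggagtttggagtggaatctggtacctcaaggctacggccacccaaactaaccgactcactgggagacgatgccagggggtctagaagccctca
Cd72 promoter, chr4:43454577-43454876, minus strand: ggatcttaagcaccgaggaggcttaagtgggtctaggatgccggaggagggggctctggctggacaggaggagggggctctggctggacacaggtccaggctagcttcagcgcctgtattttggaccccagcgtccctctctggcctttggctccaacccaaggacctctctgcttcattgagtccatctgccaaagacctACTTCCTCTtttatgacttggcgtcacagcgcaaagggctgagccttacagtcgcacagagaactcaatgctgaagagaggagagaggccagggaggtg
Spib promoter, chr7:44532022-44532321, minus strand: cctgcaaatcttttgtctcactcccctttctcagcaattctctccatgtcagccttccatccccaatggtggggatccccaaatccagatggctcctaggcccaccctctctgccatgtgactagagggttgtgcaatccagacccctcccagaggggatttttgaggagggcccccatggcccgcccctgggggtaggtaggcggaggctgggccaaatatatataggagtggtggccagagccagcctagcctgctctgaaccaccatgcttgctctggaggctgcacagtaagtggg
The octamer ATGCAAAT, bound by Oct factors that work with Pou2af1 in B cells, was in the windows of Vpreb3 and Blnk, and 1.74% of all 32851 promoter windows held it. The E-box CAGGTG, a letter pattern of the E proteins, was in 13 of the 29 windows, from 12 genes, among them Cd79a and Rag1, and in 20.2% of all windows. The E-box CAGCTG was in 5 of the 29 windows, from 5 genes, among them Rag1, and in 16.3% of all. The ETS pattern AGAGGAAGT was in the window of Cd72 and in 1.0% of all. The Ikaros pattern TGGGAA was in 7 of the 29 windows, from 6 genes, Rag1 included, and in 25.6% of all. The palindromic consensus of Ebf1 was in none of the 29 and in 0.904% of all. The window of Spib held none of the 6. These are letter matches in short windows, and no binding was measured.

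**Figure D3:**
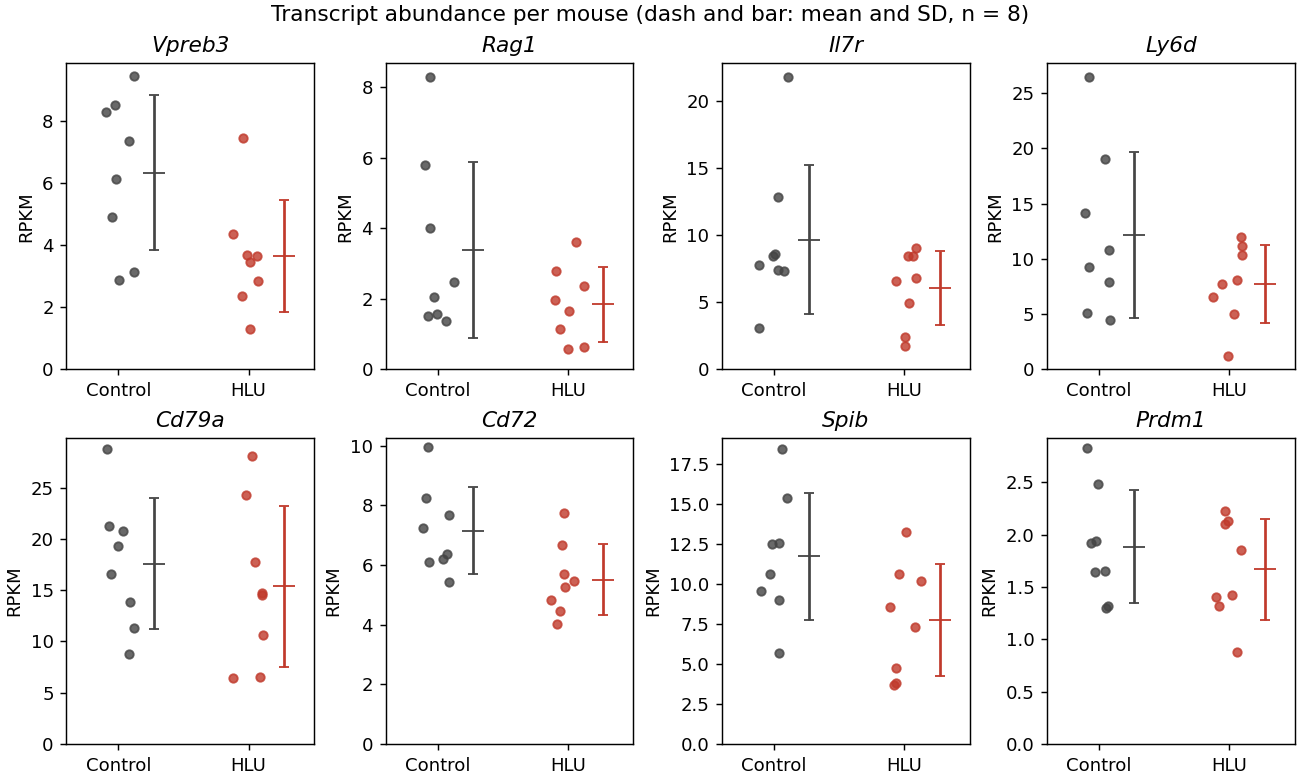
RPKM of 8 B lymphocyte genes in each mouse, with Control in grey and HLU in red and the mean and SD of 8 mice beside the points. The HLU points of Vpreb3, Cd72 and Spib sit lower as a group, with means of 3.64, 5.51 and 7.78 RPKM against 6.33, 7.15 and 11.7 RPKM, and in all 8 panels the groups overlap.

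Cd79a and Cd79b form the signalling part of the B cell receptor. Cd79a had 8.79, 18.0 and 28.7 RPKM in control mice (lowest, median and highest) and 6.42, 14.6 and 28.1 RPKM in HLU mice. The groups covered nearly the same range, with Control 7 and HLU 3 at the top and HLU 4 and HLU 7 at the bottom. The log2 change of Cd79a was -0.28 with a standard error of 0.31 (exact permutation p = 0.417), and with the marker scores as covariates it was 0.11. Cd79b was at 26.95 ± 9.01 RPKM (Control) and 21.4 ± 7.9 RPKM (HLU, SD, n = 8 each), a change of -0.35 (exact permutation p = 0.241).

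Cd72, an inhibitory co-receptor of B cells, had 5.43, 6.79 and 9.97 RPKM in Control and 4.02, 5.36 and 7.72 RPKM in HLU mice. Of the HLU mice, 7 lay below the control median and 4 below every control mouse, while HLU 5 was above that median. The mean was 7.15 ± 1.46 and 5.51 ± 1.204 RPKM (SD, n = 8), a log2 change of -0.37 with a standard error of 0.15 (limma p = 0.0216, adjusted p = 0.744, exact permutation p = 0.0224). The call was lost with the GC trend removed (-0.28), with quantile normalization (-0.25), with the marker scores as covariates (-0.31) and with the replicate number as a block (-0.37). Cd72 and Tesk1 share 1423 bases of exon in GENCODE M21, so their reads may be mixed. Tesk1 itself was at 2.48 ± 0.62 and 2.30 ± 0.67 RPKM, a log2 change of -0.12 with a standard error of 0.19, and its correlation with Cd72 between mice was 0.128.

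The kinases and adaptors that pass on the receptor's signal had fold changes of similar size, none of which passed the threshold. Blk, a Src family kinase largely restricted to B cells, was at 5.10 ± 2.18 RPKM (Control) and 3.53 ± 1.62 RPKM (HLU, exact permutation p = 0.147), and Syk, the kinase that docks on Cd79a and Cd79b and is also used by myeloid cells, was at 19.0 ± 2.5 and 15.3 ± 5.4 RPKM (exact permutation p = 0.069). For Syk 4 HLU mice lay below every control mouse, while HLU 2 and HLU 3 were among the highest of all. Btk, a further kinase of this pathway, was at 28.8 ± 8.9 and 22.8 ± 8.8 RPKM, and Blnk, the adaptor between Syk and Btk, at 3.64 ± 1.29 and 2.85 ± 0.88 RPKM. The scaffold Bank1 was at 5.01 ± 2.59 and 3.82 ± 1.43 RPKM. The log2 changes of these 5 genes lay between -0.54 and -0.31.

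Among the genes of mature B cells, Spib was called lower. Spib, an ETS transcription factor of B cells and plasmacytoid dendritic cells, had 5.70, 11.6 and 18.4 RPKM in Control and 3.67, 7.92 and 13.3 RPKM in HLU mice. HLU 4, HLU 7 and HLU 6 lay below every control mouse, and HLU 3 alone lay above the control median. The mean was 11.7 ± 4.0 RPKM (Control) and 7.78 ± 3.52 RPKM (HLU, SD, n = 8 each), a log2 change of -0.65 with a standard error of 0.29 (limma p = 0.0361, adjusted p = 0.744, exact permutation p = 0.0538). Spib lost its unadjusted call when any one of 7 mice was left out (Control 4, Control 6, Control 7, Control 8, HLU 4, HLU 6 or HLU 7), with changes of -0.63 to -0.52, and also with the GC trend removed (-0.56), quantile normalization (-0.54), the marker scores as covariates (-0.37) and the replicate number as a block (-0.65). Of 5 plasmacytoid dendritic cell markers 2, Siglech and Klk1, were called lower, beside 4.76% of all features. Bst2 and Ccr9 were not called, and Tcf4 was at 0.10 on the log2 scale. The summed levels of the 5 were 38.0 to 66.3 RPKM in Control and 28.9 to 53.0 RPKM in HLU mice (exact permutation p = 0.0601). This sum follows mainly Bst2, the most abundant of the 5, at means of 37.97 and 30.45 RPKM. The part of plasmacytoid dendritic cells in the Spib result was not tested.

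Ms4a1, which encodes the B cell antigen CD20, had 2.99, 8.89 and 29.2 RPKM in Control and 3.17, 7.88 and 10.3 RPKM in HLU mice. The value of Control 4 was far above those of all other mice, which overlapped. Its change was -0.38 with a standard error of 0.37 (exact permutation p = 0.370). Pou2af1, the octamer co-activator, was also highest in Control 4, at 41.3 RPKM, and its means were 17.5 ± 10.4 RPKM (Control) and 11.2 ± 4.5 RPKM (HLU, exact permutation p = 0.118). Tnfrsf13c, the receptor for the survival factor Baff, was at 3.85 ± 1.69 and 2.66 ± 1.06 RPKM (exact permutation p = 0.182), and Fcrla, an intracellular Fc receptor-like protein, at 4.26 ± 1.97 and 3.18 ± 1.48 RPKM (exact permutation p = 0.262). Bach2, a repressor that delays plasma cell differentiation, was at 1.19 ± 0.72 and 0.804 ± 0.283 RPKM (exact permutation p = 0.150). The complement receptor Cr2 and the IgE receptor Fcer2a, both of mature B cells, had the smallest changes, at -0.22 and -0.08. That of Fcer2a was above 0 with median-of-ratios rescaling, with quantile normalization, with voom, with the GC trend removed and with the marker scores as covariates.

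The plasma cell genes had no call. Irf4, a factor needed at high level for plasma cell fate and also expressed in pre-B cells, was at 4.19 ± 2.32 RPKM (Control) and 2.92 ± 1.048 RPKM (HLU, exact permutation p = 0.200). Prdm1, which encodes the plasma cell regulator Blimp-1 and is also made by osteoclasts and T cells, had 1.30, 1.79 and 2.83 RPKM in Control and 0.876, 1.64 and 2.23 RPKM in HLU mice (limma, adjusted p = 0.827). Mzb1, a chaperone of antibody secretion, was at 6.73 ± 1.59 and 5.86 ± 2.23 RPKM (exact permutation p = 0.292). Tnfrsf17 was at 0.859 ± 0.635 and 0.718 ± 0.822 RPKM (exact permutation p = 0.511) and rested on 1 to 33 reads in a mouse. Its highest values were those of HLU 8 and Control 8, the 2 mice in which Mzb1 was also highest.

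The B lymphocyte genes varied together between mice of the same group. Correlations were computed on log2 values after each group's mean was subtracted, over 16 mice, so a difference between groups plays no part in them. Of the 496 pairs of features 468 had r above 0, with a median of 0.561, and the features share libraries and their GC slopes. The share of such pairs over all features is not given here. The median r was 0.762 over the 28 pairs of mature B cell genes, 0.739 over the 28 pairs of receptor signalling genes, 0.398 over the 66 pairs of progenitor features and 0.398 over the 6 pairs of plasma cell genes.

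Cd79a was taken as the reference for 31 relations. Its nearest genes were Cd79b (Pearson r = 0.902, Spearman rho = 0.857, adjusted permutation p = 0.000207 and 0.0031), Syk, Spib and Blk, the last 3 with r of 0.895, 0.893 and 0.885. Leaving out HLU 4 and HLU 7, the 2 mice farthest from the median Cd79a, gave r of 0.860, 0.805, 0.815 and 0.812 for these 4. By Pearson r 15 of the 31 relations had an adjusted permutation p under 0.05, and by Spearman rho 11, whereas without HLU 4 and HLU 7 the count was 8 and after median-of-ratios rescaling 9. The share over all features is not given here. Of 56 relations of Cd79a with markers of other cell types, 51 had r above 0. By Pearson r 17 of these had an adjusted permutation p under 0.05. Fcrla, Blnk and Pax5 followed at 0.726, 0.719 and 0.709. At the other end, Prdm1 was at -0.223, the shorter Ebf1 feature at -0.058, Tnfrsf17 at 0.116 and the longer Ebf1 feature at 0.202, none of them with an adjusted permutation p under 0.05.

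Rag1 as the reference, chosen after the values had been seen, gave a different order. Igll1 was at r = 0.888, Rag2 at 0.877, Bach2 at 0.859, Fcrla at 0.844, Irf4 at 0.843, Il7r at 0.838, Pou2af1 at 0.819 and Dntt at 0.811, and 19 of 31 relations had an adjusted permutation p under 0.05. Vpreb3 and Pax5 were at 0.320 and 0.270, and Ly6d at 0.021. The r between Rag1 and Cd79a themselves was 0.406 over 16 mice (permutation p = 0.130, adjusted p = 0.156), and it was -0.030 among Control and 0.737 among HLU, a difference that was not tested. Without Control 4 and HLU 7, the mice farthest from the median Rag1, Igll1 was at 0.827 and Rag2 at 0.852. Features outside the list lay closer to Rag1 than any gene in it. Of 15730 features with a unique symbol, the 10 most like Rag1 had r from 0.904 to 0.923, all above that of Igll1. They were Slamf7, Mfap3, Map3k5, Arl5c, Cacna1e, Spty2d1, Cep170, Dusp11, Camsap2 and Glcci1. The first, Slamf7 (0.923), is among the other plasma cell genes counted below, so it is not outside the B lineage. The share of relations with an adjusted permutation p under 0.05 is not given over all features.

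**Figure D4:**
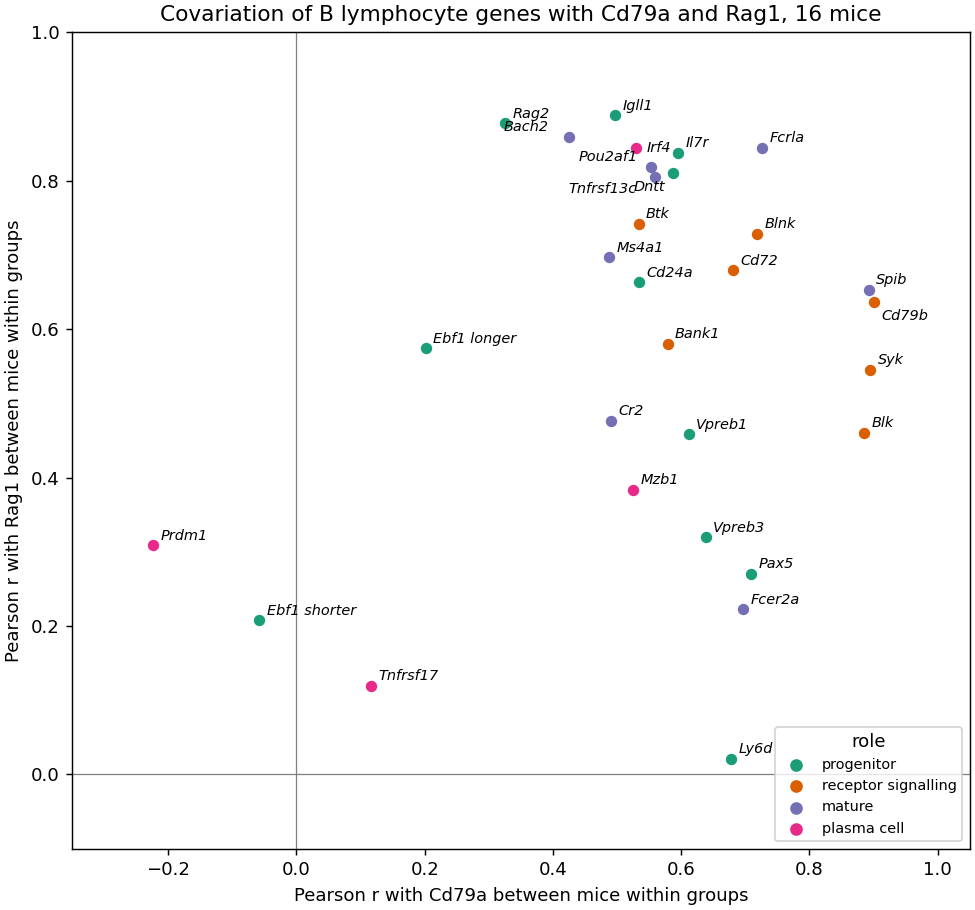
Pearson r of each B lymphocyte gene with Cd79a (horizontal) and with Rag1 (vertical) between mice, on log2 values with group means subtracted, coloured by role. Cd79b, Syk, Spib and Blk lie at the right edge with r of 0.885 to 0.902 with Cd79a, Igll1 and Rag2 at the top with r of 0.888 and 0.877 with Rag1, and Ly6d at 0.679 with Cd79a and 0.021 with Rag1.

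The genes were also compared with the GC slope of the library. That slope is computed from how abundance follows GC, so a negative r of transcripts low in GC is in part built into it. All 18 features with a GC content under 50% had a negative r with the GC slope of the library, from -0.683 to -0.393, whereas the 14 features at 50% or more ranged from -0.575 to 0.698 with a median of -0.030. Of these 32 relations 6 had an adjusted permutation p under 0.05. They were Ly6d (r = 0.698), Ms4a1 (-0.683), Rag2 (-0.677), Bach2 (-0.673), Il7r (-0.660) and Pou2af1 (-0.654), but the Spearman rho of Ly6d was 0.345 (permutation p = 0.214), and its r was 0.539 without HLU 4 and Control 4. Without these 2 mice the r of the other 5 lay between -0.906 and -0.554. After the GC trend was removed within each library, the r with Cd79a went from 0.596 to 0.908 for Il7r, from 0.488 to 0.794 for Ms4a1 and from 0.406 to 0.622 for Rag1, and from 0.679 to 0.452 for Ly6d. The count of relations with an adjusted permutation p under 0.05 went from 15 to 24, while the median over all 496 pairs went only from 0.561 to 0.539.

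**Figure D5:**
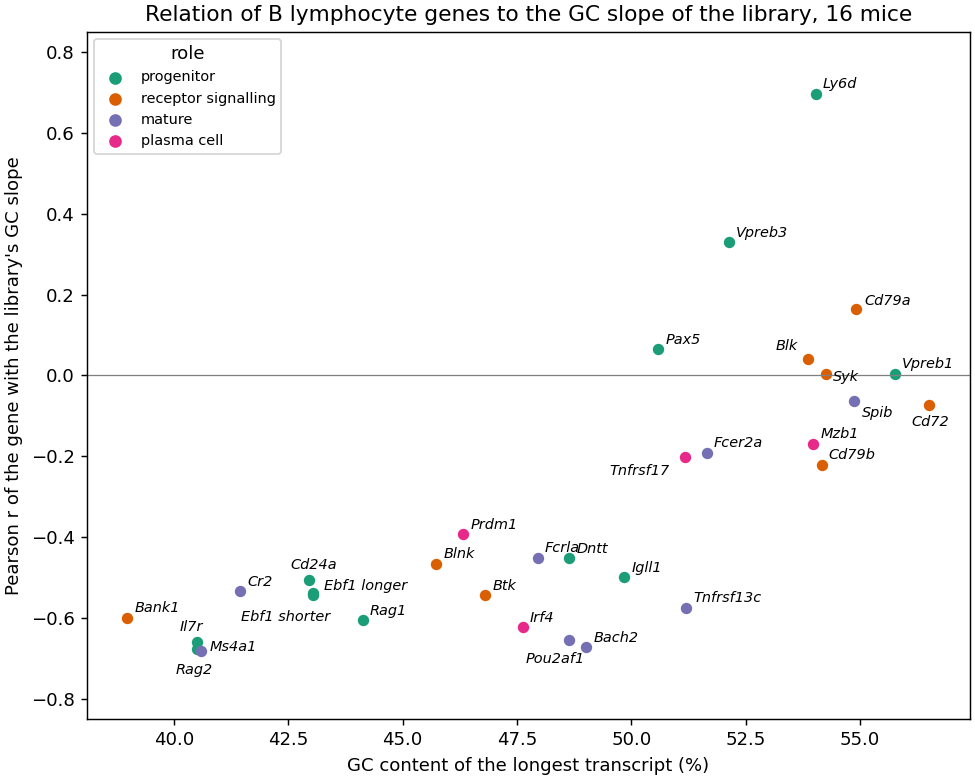
GC content of each gene's longest transcript in percent (horizontal) against the Pearson r between the gene's log2 level and the GC slope of the library over 16 mice (vertical), coloured by role. The 18 features under 50% lie between -0.683 and -0.393, and Ly6d stands at 0.698.

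Other genes of the same pathways were tested in the same fit. Over all features, 67.9% had a fold change below 0, with a median of -0.10, and 4.76% were called lower. Of 13 other early B lineage genes tested, 12 had a fold change below 0 and none was called, with a median of -0.31. Of 26 other genes of receptor signalling and mature B cells, 2 were called lower. These were H2-Ab1, a class II antigen presentation gene, at -0.40 (exact permutation p = 0.0451) and Dapp1, an adaptor of B cell receptor signalling, at -0.47 (exact permutation p = 0.0207). Of 12 other plasma cell genes 2 were called lower, Creld2 at -0.45 (exact permutation p = 0.0232) and Edem1 at -0.38 (exact permutation p = 0.0302), both of them genes of protein folding in the endoplasmic reticulum that many secretory cells express. Of 9 niche genes that support B lymphopoiesis none was called, with a median of -0.05, and Il7 was at 1.69 ± 0.92 and 1.68 ± 0.52 RPKM and Cxcl12 at 126.9 ± 29.5 and 128.9 ± 38.3 RPKM. All 12 proliferation genes tested had fold changes below 0, with a median of -0.48 and no call.

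Markers of other cell types were measured beside the B lymphocyte genes, and their part in the results above was not tested. Over all features, 4.76% were called lower and 1.11% higher, and 67.9% had a fold change below 0. Of 9 erythroid markers 3 were called lower, with summed levels of 2399 to 5512 RPKM in Control and 1144 to 3183 RPKM in HLU mice (exact permutation p = 0.0350). Of 4 megakaryocyte markers 2 were called lower, Pf4 and Ppbp, with sums of 939 to 1580 and 406 to 1353 RPKM (exact permutation p = 0.00932). Itga2b and Gp1ba were not called (exact permutation p = 0.183 and 0.148). Such sums follow their most abundant genes, here Hbb-b1 (means of 1271 and 734 RPKM) and Ppbp (1084 and 707 RPKM), more than the cell type as a whole. Of 8 T cell markers 1, Cd3d, was called lower, and their sums were 10.8 to 33.4 and 9.05 to 22.5 RPKM. None of 7 granulocyte markers, 6 monocyte and macrophage markers or 4 NK cell markers was called, and the sums of the granulocyte markers were 17490 to 37730 and 12320 to 44370 RPKM. All 5 osteocyte markers had fold changes above 0, with a median of 0.39 and Mepe called higher, and their sums were 178 to 588 RPKM in Control and 262 to 597 RPKM in HLU (exact permutation p = 0.1001). No marker of these lists was at 0 in all mice.

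Between mice, Cd79a also had a positive r with most markers of other blood cells. Of 56 relations with markers, 17 had an adjusted permutation p under 0.05 by Pearson r and 2 by Spearman rho, and 2 without HLU 4 and HLU 7. The highest were Cd8b1 at r = 0.869 and Lck at 0.852, both of T cells, then Alas2 at 0.801 and Car1 at 0.780, both erythroid. The 2 by Spearman rho were Cd8b1 and Lck. Some relations differed between groups, which was not tested. The granulocyte marker Ngp was at 0.035 among Control and 0.924 among HLU, and the megakaryocyte marker Gp1ba at 0.081 and 0.96. Alas2 was at 0.725 and 0.840, and Car1 at 0.803 and 0.770. Of the 56 relations, 19 had the higher r among Control. The 8 osteoblast markers lay between -0.061 and 0.235 and the 5 osteocyte markers between -0.396 and 0.374, none with an adjusted permutation p under 0.05. HLU 7, lowest for 16 of the 32 B lymphocyte genes, was also the lowest of the 16 mice in erythroid and granulocyte marker score, at -1.07 and -1.003 on the log2 scale, whereas Control 4, highest for 22 features, was at -0.06 and -0.05. Cd79a had no such relation to depth (r = -0.160, permutation p = 0.564).

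By the same measure the 10 features with a unique symbol outside the list that were most like Cd79a, of 15730 compared over 16 mice, were Dgka, Rims3, Siglec1, Wdfy4, Cd5l, Rasa3, Itgad, St3gal1, Tmem206 and Mbd1, with r from 0.875 to 0.900. Of these Dgka, a diacylglycerol kinase, had the highest r, at 0.900, next to 0.902 for Cd79b.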

How the data were processed

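RNA of femoral cortical bone was sequenced in 16 mice, 8 Control and 8 HLU, with groups and mouse numbers taken from the sample titles. The authors prepared TruSeq v2 libraries, aligned reads with TopHat2 to mm9 and deposited RPKM values for 36829 features. The counting tool, annotation and versions are not given in the sources used here. DESeq2 is named in the submitters' processing notes for the authors' own comparison, and it was not used here. The labels give 1 sample per mouse.

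Features averaging 0.5 RPKM or more were compared with limma 3.58.1 in R 4.3.3 on log2(RPKM + 0.1), so fold changes understate those of low genes, with variances moderated along a trend and Benjamini-Hochberg adjustment over 16973 features. A call needed 1.2-fold and a p under 0.05 unadjusted or 0.1 adjusted. Single genes were also tested by exact permutation, two-sided, over 12870 splits of the mice, and correlations with 100000 permutations within groups (Python 3.11.15, numpy 2.4.6, scipy 1.17.1, pandas 2.3.3; figures with matplotlib 3.10.9). The RPKM values gave whole reads, within 0.01 reads, for 16973 of 16973 features tested, and voom in limma was run on these reads as an alternative. Scripts were tested on simulated data.

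GC content came from the longest GENCODE M21 transcript of each symbol, and exon overlaps from the same release. All 33 genes are named by rule, with full values for those past the unadjusted threshold and for examples of each role. Genes of other lists are named only at an unadjusted p under 0.05 or as markers of a stated group. Il7, Cxcl12, Tesk1 and Slamf7 were named after their values had been seen. The genes, lists and tests were chosen with earlier results of these data known. Of the features, 3887 carry the symbol Rnf135 and were treated as separate features. Alternatives covered pseudocounts, filters, scaling, the trend, voom, covariates, a replicate block, leaving out libraries and, added after the data had been seen, removal of the GC trend and Rag1 as the reference. Values of a further listed gene are not reported here.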

Additional observations from a re-analysis of the deposited data

Results flagged for a closer look

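Single values far from the others were looked for in 64 groups of 8 mice (32 features in 2 groups) by the gap to the nearest mouse over the range of the group, on log2 values, which flags about 1 group in 20 by chance, 3.2 here. Only 2 were found. Ly6d in HLU 4 was at 1.24 RPKM, and the other 7 HLU mice lay between 4.97 and 11.96 RPKM. HLU 4 was also the library with the most negative GC slope. Tnfrsf13c in Control 5 was at 1.17 RPKM, and the other 7 control mice lay between 2.86 and 6.15 RPKM.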

How the results depend on the processing

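The count of features called lower, 808, was 394 with median-of-ratios rescaling, 357 with quantile normalization and 471 to 1385 when 1 mouse was left out, with 505 without Control 6, 512 without Control 7, 488 without HLU 1, 471 without HLU 7 and 1385 without HLU 2. The count called higher, 188, was 381 and 473 under these scalings, 461 with the GC trend removed, 727 with the marker scores as covariates, 106 with a minimum mean of 2 RPKM, 391 with no filter, 108 without the 2 libraries with the fewest reads, and 117 to 363 when 1 mouse was left out (363 without HLU 2, 310 without HLU 3, 117 without HLU 7). The adjusted count, 0, was 1 with no filter, 1 without the trend and 0 to 1 when 1 mouse was left out (HLU 2). The 3 B lymphocyte genes called lower became 1 with the GC trend removed, 1 with quantile normalization and 2 to 11 when 1 mouse was left out, beside 3.18%, 2.1% and 2.77% to 8.16% of all features. With the covariates 4 others were called (Btk, Rag2, Cd24a and Rag1), beside 6.82%. Vpreb3 kept its unadjusted call in 27 of 28 alternatives, Cd72 in 24 and Spib in 17. The relations with Cd79a, 15, became 9 with median-of-ratios rescaling, 8 without HLU 4 and HLU 7 and 24 with the GC trend removed, and those of Cd79a with markers, 17, became 4, 2 and 26. The cause of these changes was not tested.

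The sign of the log2 change turned for Igll1 (0.0196 with the GC trend removed, 0.0117 with median-of-ratios rescaling, 0.0084 with quantile normalization, -0.26 to 0.11 when 1 mouse was left out), for the longer Ebf1 feature (0.0768, 0.0699 and 0.0966 in the same order, 0.0451 with voom, -0.1002 to 0.0911), for the shorter one (0.0131 without the 2 smallest libraries) and for Fcer2a (0.0142, 0.0115 and 0.0013, 0.0056 with voom, 0.1845 with the covariates, -0.3633 to 0.0902). With the covariates it also turned for Ly6d (0.23), Cd79a (0.11), Mzb1 (0.0112) and Tnfrsf17 (0.11). Mice with the same number in both groups had r of -0.166 to 0.51, and 1 of 8 matched its own number best, so numbers were not taken as pairs. The fit with the replicate number as a block called 2 B lymphocyte genes, Vpreb3 and Pax5.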

Other observations

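The antibody genes named here were picked with their values in view. Igkc, the kappa constant region, was at 2091 ± 860 RPKM (Control) and 1685 ± 650 RPKM (HLU, SD, n = 8 each, exact permutation p = 0.314), and Ighm, the heavy chain of IgM, at 731 ± 419 and 590 ± 307 RPKM (exact permutation p = 0.402). Igj, the chain that joins secreted IgM and IgA, was at 99.97 ± 46.6 and 89.1 ± 57.8 RPKM (exact permutation p = 0.439), and its r with Cd79a between mice was 0.0079. Ighg2c was at 155 RPKM in HLU 2, against a mean of 27.2 ± 10.7 RPKM in control mice, and Ighe at 18.0 RPKM in HLU 8, against 5.07 ± 2.03 RPKM, whereas the highest Ighg1 was that of Control 7, at 162 RPKM.

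Other members were also taken as references after the values had been seen, with 15730 features compared over 16 mice. The 10 features most like Prdm1 were Atp6v1a, Tgfbr1, Snx10, Slc36a4, Atp6v1h, Dcstamp, Slc18a1, Rin2, Insig1 and Mmp13, with r from 0.899 to 0.827. The 10 most like Tnfrsf17, led by Sdhaf2 (0.809), held Igkj1 (0.803) and Igj (0.755) beside Mir697, Gm11694, Erh and 4 features of Rps12 type. The feature most like Ms4a1 was Btla (0.962), an inhibitory receptor of lymphocytes. The 10 features most like Ly6d, led by Csk (0.927), had GC contents of 53.2% to 60.1%.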
